A study of Arabidopsis thaliana with 4 samples.

Results

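The mRNAs described here are those that, after 12 h of hypoxia, kept about the same relative level in total RNA but had a lower relative level in RNA of large polysomes. Polysomes are mRNAs that carry several ribosomes, and large polysomes are those that carry many. RNA came from whole Arabidopsis thaliana seedlings, wild type of accession Ler and 7 d old, all kept under low light. It was hybridised to Affymetrix ATH1 arrays, on which a transcript is read by several short probes, together called a probe set. The 4 groups were large-polysome RNA in hypoxia, large-polysome RNA of non-stressed controls, total RNA in hypoxia and total RNA of non-stressed controls, with 1 array in each. Both hypoxia groups and the large-polysome control are labelled with 12 h; no duration is labelled for total RNA of the control, so whether it was sampled at the same time is unknown.

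Members were chosen by their measured intensities on these same 4 arrays, so the values that chose them are given as a description. A probe set was a member when its intensity was above 140 on all 4 arrays, when hypoxia over control in total RNA lay between 0.8 and its reciprocal, and when hypoxia over control in large-polysome RNA was at or below 0.57. Of 22746 probe sets that were not controls, 11150 were above 140 on every array and 173 met these criteria. Cytosolic ribosomal protein genes accounted for 8 of them and were left out, and no organelle-encoded gene was among them, which left 165 members. They were 1.51% of the 10940 probe sets that were above 140 on all arrays and were neither cytosolic ribosomal protein nor organelle-encoded, called the measured probe sets below. Of the members, 82 had 1 gene in the platform annotation, 3 had several and 80 had none and are unnamed here. Unnamed probe sets made up 48.5% of members and 46.4% of measured probe sets, so ribosomal protein or other genes among the unnamed members could not be recognised.

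Ribosomes are built from ribosomal RNA and proteins, and translation starts when initiation factors bring the small subunit to an mRNA. Other things being equal, an mRNA that is initiated more often carries more ribosomes and sediments with larger polysomes. Low oxygen limits the respiratory supply of ATP, and plants under hypoxia are known to restrict protein synthesis, one of the largest consumers of ATP in the cell, while mRNAs needed for fermentation stay on polysomes. The share of an mRNA in large polysomes is not a direct measure of its translation.

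All arrays have nearly the same mean after scaling, so every ratio compares an mRNA with the average mRNA on the array, and a general loss of large polysomes would not show. With 1 array in each group no difference has a replicate check and no p-value was computed. In whole seedlings, a lower signal from fewer cells of a type and one from less mRNA in each cell cannot be told apart. Genes known from shoot and from root were above 140 on all arrays, at very different intensities. LHCB4.2, a light-harvesting antenna protein of leaves, had intensities of 4807 and 4006 in large-polysome RNA of hypoxic and control seedlings and 5549 and 6577 in total RNA. PYK10, a root beta-glucosidase, had 14151 and 12721 in large-polysome RNA and 14174 and 19221 in total RNA. ATPC1, a chloroplast ATP synthase subunit, was also bright, at 6067 or more on every array, whereas LHCB4.3, another antenna gene, lay between 249.1 and 410.9. EXPA18, a root hair expansin, was lower in hypoxia. It had 243.6 in hypoxia and 540 in control in large-polysome RNA, and 243.5 and 860.1 in total RNA. The actin control is read by more than one pair of 3′ and 5′ probe sets, and both gave a higher 3′ to 5′ ratio in large-polysome RNA. One gave 2.15 in hypoxia and 2.45 in control in large-polysome RNA, and 1.22 and 1.39 in total RNA. The other gave 7.34 and 10.9 in large-polysome RNA, and 5.53 and 5.46 in total RNA. The same ratio of a GAPDH control was 0.7999 in hypoxia and 1.12 in control in large-polysome RNA, and 0.746 and 1.06 in total RNA. The part of RNA integrity in the ratios was not tested.

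The large-polysome signal of the members was lower in hypoxia by the choice of members. The median ratio of hypoxia over control was 0.507 in large-polysome RNA and 0.905 in total RNA. All 165 had a polysomal ratio below 1, as did 52.2% of measured probe sets. A polysomal ratio of 0.5 or less was found for 72 members. The rule admits only low polysomal ratios, and no share of all measured probe sets at 0.5 or less is given. The count of 72 is therefore a description of the choice and no measure of the strength of the change. In total RNA 127 members were below 1 and 38 above 1, where 48.2% of measured probe sets were above 1, and 11.2% were above 1 in total RNA and below 1 in large-polysome RNA. This split was set by the scaling, since 73 of the 165 were above 1 after quantile normalization, 124 with equal medians and 145 with spiked bacterial controls. The median intensity of the members was 396.5 in hypoxia and 755 in control in large-polysome RNA, and 420.4 in hypoxia and 467.7 in control in total RNA. In large-polysome RNA in hypoxia, 35 members had an intensity under 200, close to the limit of 140.

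**Figure D1:**
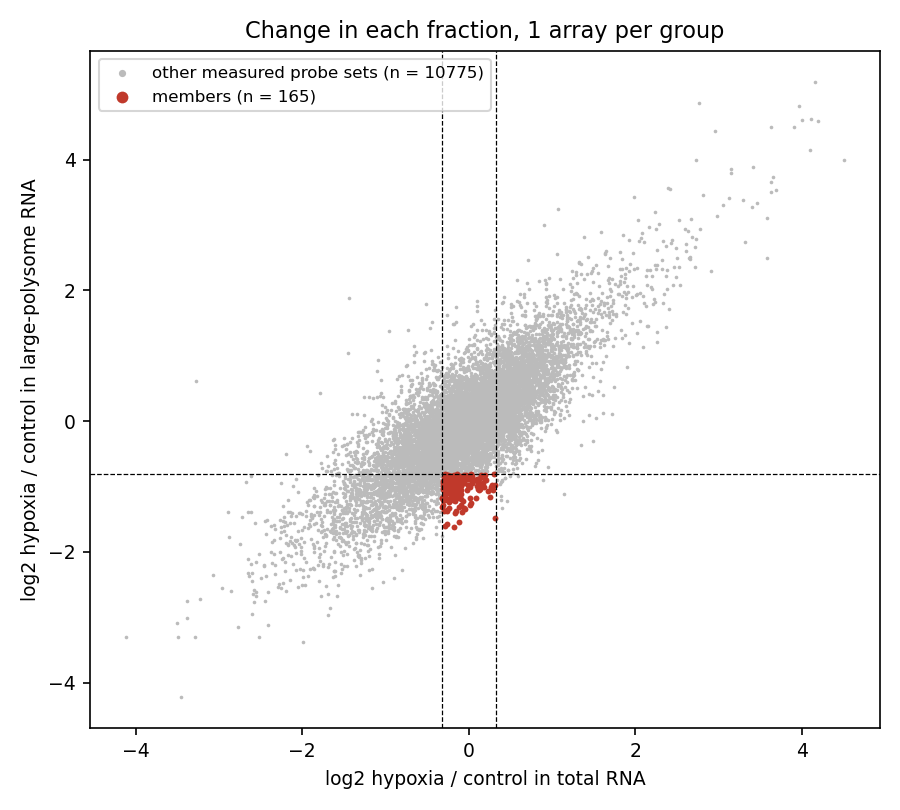
Each point is a measured probe set, with the log2 ratio of hypoxia over control in total RNA on the horizontal axis and in large-polysome RNA on the vertical axis, from 1 array per group. The 165 members, in red, fill the area that the dashed lines of the rule mark off below -0.81 on the vertical axis and within 0.32 of 0 on the horizontal axis, at the lower edge of one continuous cloud.

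The members formed the edge of a continuous distribution, and nearly as many mRNAs lay at the opposite edge. A polysomal ratio at or below 0.57 was found for 14.9% of measured probe sets, a total RNA ratio within the stable window for 38.9%, and both for 1.51%. The mirror image of the rule, with total RNA in the same window and a polysomal ratio of at least 1.75, held for 160 probe sets, or 1.46%. With the fractions exchanged, 122 probe sets, or 1.12%, were stable in large-polysome RNA and at or below 0.57 in total RNA. Among probe sets stable in total RNA, 3.87% were members and 3.76% met the mirror rule. Which probe sets were members also depended on how arrays were scaled: 97 of the 165 met the rule after quantile normalization, 56 with equal medians, and 135 with spiked bacterial controls, under which 1045 probe sets met it in all. Members were 1.73% of measured probe sets with a mean intensity under 500, 1.46% of those between 500 and 2000, and 0.982% of those at 2000 and over.

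The named members just inside the limit on the polysomal ratio were AT1G49570 at 0.568, AT5G44710 at 0.568 and AT2G30105 at 0.567. Just outside stood AT5G60980 at 0.5701, AT3G26750 at 0.572 and AT1G63660 at 0.572.

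In non-stressed controls, most members were richer in large-polysome RNA than the average mRNA, and in hypoxia most were poorer. Large-polysome over total signal, on the log2 scale, had a median of -0.33 in hypoxia and 0.61 in control, against -0.02 in hypoxia and -0.03 in control over all measured probe sets. Of the members, 121 were below 0 in hypoxia and above 0 in control, which is 73.3% of members, against 16.9% of measured probe sets. Another 35, or 21.2%, were above 0 in both conditions, against 30.5% of measured probe sets, and 9, or 5.45%, were below 0 in both, against 34.9%. Because the rule uses the same 4 arrays, a high control ratio and a low hypoxic ratio are partly built into the choice of members, and these values are a description. The change of association, which is this log2 value in hypoxia minus that in control, ran from -1.80 to -0.53 over the members with a median of -0.88.

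**Figure D2:**
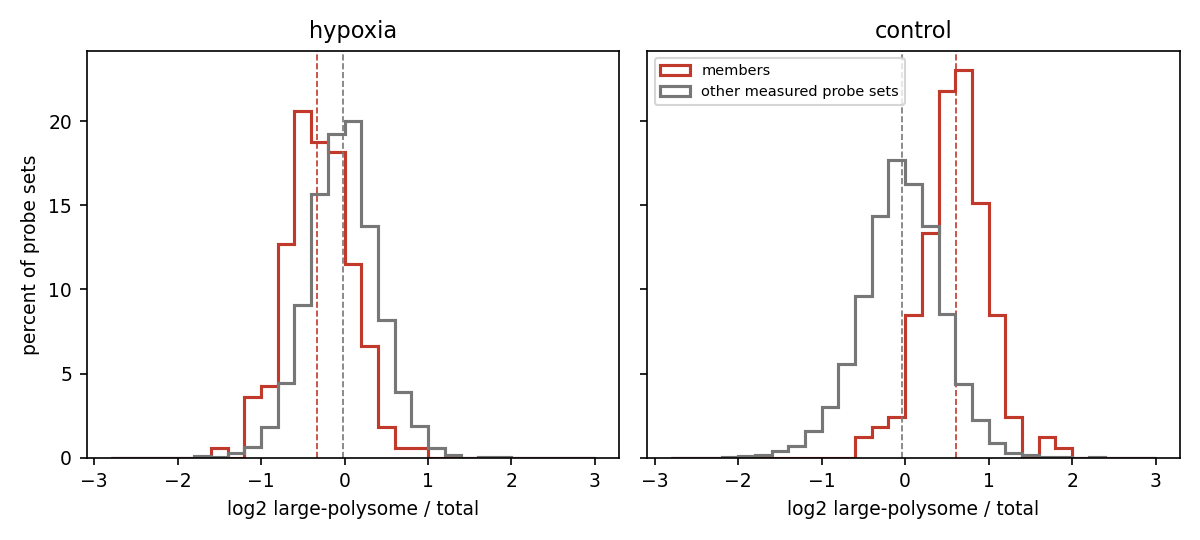
Distribution of log2 large-polysome over total signal in hypoxia (left) and in control (right), as the percent of members (red) and of other measured probe sets (grey), with dashed lines at the medians. The members' median was -0.33 in hypoxia and 0.61 in control, while the other probe sets stayed centred near 0 in both.

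As a guide to probe error, 30 genes with 2 measured probe sets gave changes of association that differed by a median of 0.47 between the probe sets and by 1.02 at the 95th percentile. The change of association of 47 members was larger in size than 1.02, and that of the rest was within it. Because the rule selects large negative changes and no share over all measured probe sets is given, this count does not show that the 47 exceed probe error. None of the 82 members with 1 gene had a second named probe set, so none could be checked by a second set of probes. The 80 unnamed members had changes of association between -1.44 and -0.53, and their median was -0.88.

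The 8 excluded cytosolic ribosomal protein probe sets met the same criteria as the members, which fixes much of their values. They had a median log2 large-polysome over total ratio of -0.06 in hypoxia and 0.99 in control. Over all 138 measured probe sets of cytosolic ribosomal proteins, the same ratio was 0.09 in hypoxia and 0.58 in control, with a median change of association of -0.42. Of these 138, 127 had a change of association below 0, against 49.5% of measured probe sets. The members' medians of -0.88 and -0.33 cannot be compared with those of the 138, because only the members were chosen for a low polysomal ratio. The 8 that met the same criteria had a median change of association of -0.99.

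The functions below are background knowledge of the genes, because the annotations used here hold no product descriptions. The members were sorted into 10 groups by role, which took in 42 of the 82 named members; the other 40 had no role that was certain enough to use. The groups were formed after the values had been seen, so their sizes are a description and are not evidence that a role is frequent among members.

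Several members belonged to mitochondrial ribosomes and mitochondrial translation. HLL (HUELLENLOS) encodes a mitochondrial ribosomal protein of the L14 type that is needed for ovule development. Its large-polysome intensity was 314.8 in hypoxia and 655.6 in control, and its total RNA intensity was 322.8 in hypoxia and 327.3 in control. The mRNA was thus at 0.480 of control in large polysomes while total RNA stood at 0.986. AT4G39880, an L23-type protein of the mitochondrial large subunit, had 693.1 in hypoxia and 1272 in control in large-polysome RNA, and 575.9 and 670.4 in total RNA. AT4G37660, of the L12 family of bacterial-type ribosomal proteins, had 515.8 in hypoxia and 1018 in control in large-polysome RNA, and 567.7 and 666.4 in total RNA. A related L12-type gene, AT1G70190, had 326.3 and 594.9 in large-polysome RNA, and 469.4 and 552.7 in total RNA. In all 3 the large-polysome signal was lower by more than the total RNA signal, as the rule requires of every member. AT5G44710, assigned to the mitochondrial small subunit, had 288.1 in hypoxia and 507.5 in control in large-polysome RNA, against 204.6 and 209 in total RNA. AT3G01800 encodes a ribosome recycling factor of the bacterial type, which takes ribosomes apart after termination, and had 185.4 in hypoxia and 348.7 in control in large-polysome RNA, against 169.2 and 200 in total RNA. It lay close to the limit of 140 on every array but the large-polysome control.

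Other members encode parts of mitochondria outside the ribosome. AT5G41685, which encodes the small TOM7 subunit of the translocase that imports proteins through the outer membrane, had 926.4 in hypoxia and 1955 in control in large-polysome RNA, and 825.7 and 898.8 in total RNA. AT2G40765, a small subunit of respiratory complex III, had 1761 in hypoxia and 3474 in control in large-polysome RNA, and 1343 and 1650 in total RNA. AT5G02050, of the mitochondrial glycoprotein family of matrix proteins, had 527.8 in hypoxia and 1214 in control in large-polysome RNA, and 386.7 and 480.7 in total RNA. All 3 had more large-polysome than total signal in both conditions, so they approached the average mRNA in hypoxia without dropping below it.

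Whether the rest of the mitochondrial ribosome behaved alike was examined in a list of 47 nuclear genes for its proteins. This list and the 6 that follow were written from general knowledge after the members and their values had been seen, 6 of the 7 because they hold a member, so they are a description. Of the 47, 27 were measured and 5 were members, where 1.51% of all measured probe sets were members. A polysomal ratio at or below 0.57 was found for 12 of the 27, against 14.9% of measured probe sets. The 12 include the 5 members, which have such a ratio by the rule. Most of the rest were lower in total RNA too, down to a log2 ratio of -1.02 for AT1G15810, while AT5G56940 was higher at 0.40. Among the 22 that were not members, the change of association was below 0 for 18, where 49.5% of measured probe sets were below 0, and their median was -0.33. Hypoxia over control of these 22 had a median log2 ratio of -0.53 in large-polysome RNA and -0.11 in total RNA. AT3G12370, an L10-type protein, stood just outside the criteria for a member, with 760.4 in hypoxia and 1314 in control in large-polysome RNA and 1281 and 1043 in total RNA, a change of association of -1.09. AT5G56940, an S16-type protein whose organelle is less certain, had the lowest value of the list at -1.73. AT5G55140, an L30-type protein, went the other way at 0.52.

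Nuclear genes for chloroplast ribosomal proteins were written down as a second list of 40, but the annotation named only 9 of them. These 9 were measured and none was a member, where 1.51% of all measured probe sets were members. The others could not be looked up and may be among the unnamed probe sets. All 9 had a change of association below 0, against 49.5% of measured probe sets, with a median of -0.51. But total RNA was higher in hypoxia for 8 of the 9, whose median log2 ratio was 0.39, and none had a polysomal ratio at or below 0.57.

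Cytosolic translation was represented by 3 members. AT5G44320 encodes subunit d of eIF3, the large initiation factor that binds the small ribosomal subunit, and had 1308 in hypoxia and 3029 in control in large-polysome RNA, and 1710 and 2052 in total RNA. AT1G73230 encodes a beta subunit of the nascent polypeptide-associated complex, which binds new chains as they leave the ribosome. It was the brightest named member, with 2681 in hypoxia and 5084 in control in large-polysome RNA and 4028 and 3737 in total RNA. The large-polysome and total signals thus differed in direction, with ratios of 0.527 in large-polysome RNA and 1.08 in total RNA. AT1G22730, an MA3 domain protein of a family linked to translation and energy status, had 242.8 in hypoxia and 455.1 in control in large-polysome RNA, and 355.8 and 307.0 in total RNA.

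The partners of these proteins differed in how far they followed. Of 19 genes listed for eIF3, the annotation named only 4, all measured, so most of the complex could not be looked up. The 3 that were not members had a change of association below 0, against 49.5% of measured probe sets. AT5G15610, a subunit m gene, was at -0.85, and its log2 ratio of hypoxia over control in total RNA was -0.38. AT3G02200 was at -0.55, but with log2 ratios of 0.04 in large-polysome RNA and 0.59 in total RNA. AT4G20980, the second gene for subunit d, stood at -0.05. The other 2 measured genes of the nascent polypeptide-associated complex, AT4G10480 and AT3G12390, had -0.25 and -0.22, and their total RNA was lower as well, at log2 ratios of -0.87 and -0.38.

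Members with roles in RNA processing and ribosome assembly included one of the strongest changes. AT5G60990 encodes a DEAD-box RNA helicase related to yeast Rrp3, which acts in the maturation of ribosomal RNA. Its large-polysome intensity was 546.9 in hypoxia and 1221 in control, whereas total RNA had 745.2 in hypoxia and 626.6 in control, a change of association of -1.41. The large-polysome and total signals therefore moved apart, with ratios of 0.448 and 1.19. AT5G20160, an L7Ae-type protein related to a core protein of box C/D small nucleolar ribonucleoproteins, which guide the modification of ribosomal RNA, had 2281 in hypoxia and 4914 in control in large-polysome RNA, and 2241 and 2590 in total RNA. AT3G58660, of the L1 family of ribosomal and nucleolar proteins, had 202.5 in hypoxia and 370.7 in control in large-polysome RNA, and 239.3 and 268.2 in total RNA. AT3G15010, an RNA-binding protein of the UBA2 family, had 448.3 in hypoxia and 883.0 in control in large-polysome RNA, and 779.9 and 642.1 in total RNA. Of 6 measured genes for small nucleolar ribonucleoproteins, 1 was a member, where 1.51% of all measured probe sets were members. That 1 is below 0 in change of association by the rule. The other 5 were also below 0, against 49.5% of measured probe sets. They ran from -1.10 to -0.03 with a median of -0.49, and their median log2 ratio in total RNA was -0.37. A further L7Ae-type gene, AT4G12600, had a change of -1.10 but was outside the criteria on both counts, with log2 ratios of hypoxia over control of -0.72 in large-polysome RNA and 0.38 in total RNA.

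In protein targeting and folding, AT3G60540 encodes a beta subunit of Sec61, the channel through which proteins enter the endoplasmic reticulum. It had 166.4 in hypoxia and 335.1 in control in large-polysome RNA, and 357.5 and 297.2 in total RNA. AT3G49100 encodes SRP9, a small subunit of the signal recognition particle that brings ribosomes to that channel, and had 363.9 in hypoxia and 699.2 in control in large-polysome RNA, and 332.1 and 322.1 in total RNA. The rest of this machinery did not share the pattern as a group. Of its 9 other measured probe sets, 5 were below 0 in change of association, against 49.5% of all measured probe sets. The median of the 9 was -0.03. AT3G18190 encodes the delta subunit of the CCT chaperonin, which folds actin and tubulin, and had 1254 in hypoxia and 2518 in control in large-polysome RNA, and 1173 and 1330 in total RNA. All 7 other measured CCT genes were also below 0 in change of association, against 49.5% of measured probe sets. Their median was -0.35, and they ran from -0.77 for AT5G26360 to -0.05. AT5G19370, a prolyl isomerase of the parvulin type with a rhodanese domain, had 832.2 in hypoxia and 1885 in control in large-polysome RNA, and 1347 and 1272 in total RNA.

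**Figure D3:**
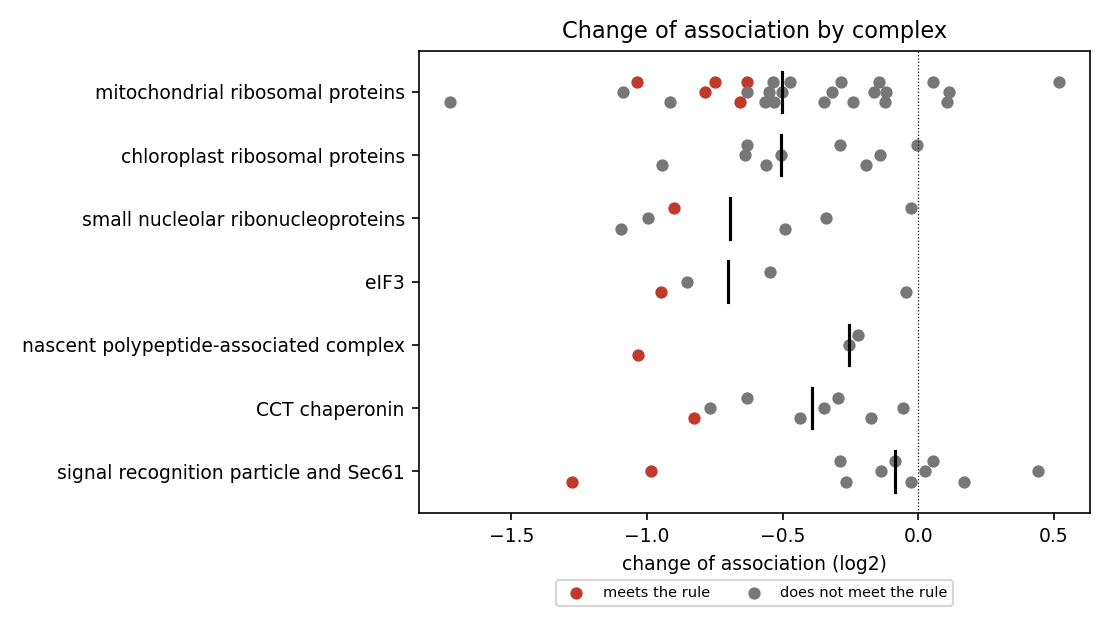
Change of association (log2, horizontal axis) for each measured probe set of the 7 lists, with members in red, other genes in grey and the median as a bar. Every value of the chloroplast ribosomal, small nucleolar, eIF3, nascent polypeptide and CCT lists lies below 0, whereas the signal recognition particle and Sec61 list lies around 0 apart from its 2 members. The members lie below 0 by the rule, and 49.5% of all measured probe sets are below 0.

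A plastid role was stated for 3 members, and others may be among those without a stated role. AT2G20270 encodes the chloroplast glutaredoxin GRXS12, which reduces disulfides with glutathione, and had 734.9 in hypoxia and 1533 in control in large-polysome RNA, and 887.7 and 727.5 in total RNA. AT5G10160, a dehydratase of the plastid fatty acid synthase, had 626.3 in hypoxia and 1433 in control in large-polysome RNA, and 824.4 and 962.0 in total RNA. AT3G58830, a phosphatase in the plastid synthesis of phosphatidylglycerol, had 236.2 in hypoxia and 544.8 in control in large-polysome RNA, and 271.5 and 308.7 in total RNA. In these 3 the polysomal ratio was between 0.434 and 0.480.

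Secreted and cell wall proteins made up 5 of the members with a stated role. EXPA9, an expansin that loosens cell walls, had the lowest change of association of all members, at -1.80. Its large-polysome intensity was 140.6 in hypoxia and 391.6 in control, and its total RNA intensity was 215.7 and 173.1. The hypoxic large-polysome value only just passed the limit of 140 and the total RNA log2 ratio of 0.32 only just met the upper bound, so EXPA9 is a member by a narrow margin on both criteria. AT2G28790, a thaumatin-family protein, had the highest large-polysome share of the named members, with 725.4 in hypoxia and 1638 in control in large-polysome RNA against 378.4 and 442.2 in total RNA. Its log2 large-polysome over total ratio was 0.94 in hypoxia and 1.89 in control. AT1G49570, a class III peroxidase, had 142.2 in hypoxia and 250.4 in control in large-polysome RNA, and 231.7 and 201.6 in total RNA. AT5G66590, a CAP-domain protein of the PR-1 type, had 324.6 in hypoxia and 612.1 in control in large-polysome RNA, and 317.6 and 378.1 in total RNA. AT2G27130, of the lipid transfer protein family, had 160.4 in hypoxia and 389.9 in control in large-polysome RNA, and 210.0 and 261.1 in total RNA.

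Regulators of transcription and development were mostly dim. TCP15, a TCP transcription factor that acts on cell proliferation, had 328.2 in hypoxia and 657.4 in control in large-polysome RNA, and 384.0 and 456.3 in total RNA. AT5G47390 (MYBH, also KUA1), a MYB-type regulator of cell expansion, was the brightest of them, with 1121 in hypoxia and 1986 in control in large-polysome RNA, and 1007 and 1195 in total RNA. TSO1, a CXC-domain protein needed for floral development, had 269.8 in hypoxia and 535.1 in control in large-polysome RNA, and 288.1 and 355.4 in total RNA. JKD (JACKDAW), a zinc finger protein of root patterning, and TKL, a relative of the clock protein TIC, had 154.0 and 177.0 in hypoxia and 298.1 and 373.0 in control in large-polysome RNA. The changes of association of these 5 lay between -0.78 and -0.58, all smaller in size than the members' median.

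In signalling and protein turnover, AT4G16360 encodes KINbeta2, a regulatory subunit of SnRK1, the kinase that responds to low energy. It had 559.0 in hypoxia and 1225 in control in large-polysome RNA, and 619.6 and 753.8 in total RNA. CML41, a calmodulin-like protein, was on the whole rich on large polysomes, with 259.4 in hypoxia and 481.5 in control against 168.0 and 154.0 in total RNA. SK18, a relative of the SKP1 subunit of ubiquitin ligases, had 212.2 in hypoxia and 481.5 in control in large-polysome RNA, and 232.3 and 230.0 in total RNA. AT5G48640, a C-type cyclin, and AT4G36550, a U-box protein, had changes of association of -0.79 and -0.69.

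A few members were scarce on large polysomes even without stress. Less large-polysome than total signal in both conditions was found for 5.45% of members, against 34.9% of measured probe sets. AT2G45540, a BEACH-domain protein of membrane trafficking, had 317.2 in hypoxia and 610.5 in control in large-polysome RNA, against 843.7 and 783.2 in total RNA. AT3G59020, of the importin beta family of nuclear transport receptors, had 923.4 in hypoxia and 1699 in control in large-polysome RNA, against 1724 and 2023 in total RNA. AT2G25520 had 1203 in hypoxia and 2175 in control in large-polysome RNA, against 2664 and 3155 in total RNA. Among named members 4 were below 0 in log2 large-polysome over total ratio in both conditions, these 3 and AT4G36550. By contrast, the vacuolar organic cation transporter OCT5 and AT1G51570 (MCTP4), a membrane-tethering protein of plasmodesmata, were above 0 in control at 0.67 and 0.51 and just below 0 in hypoxia at -0.13 and -0.21.

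**Figure D4:**
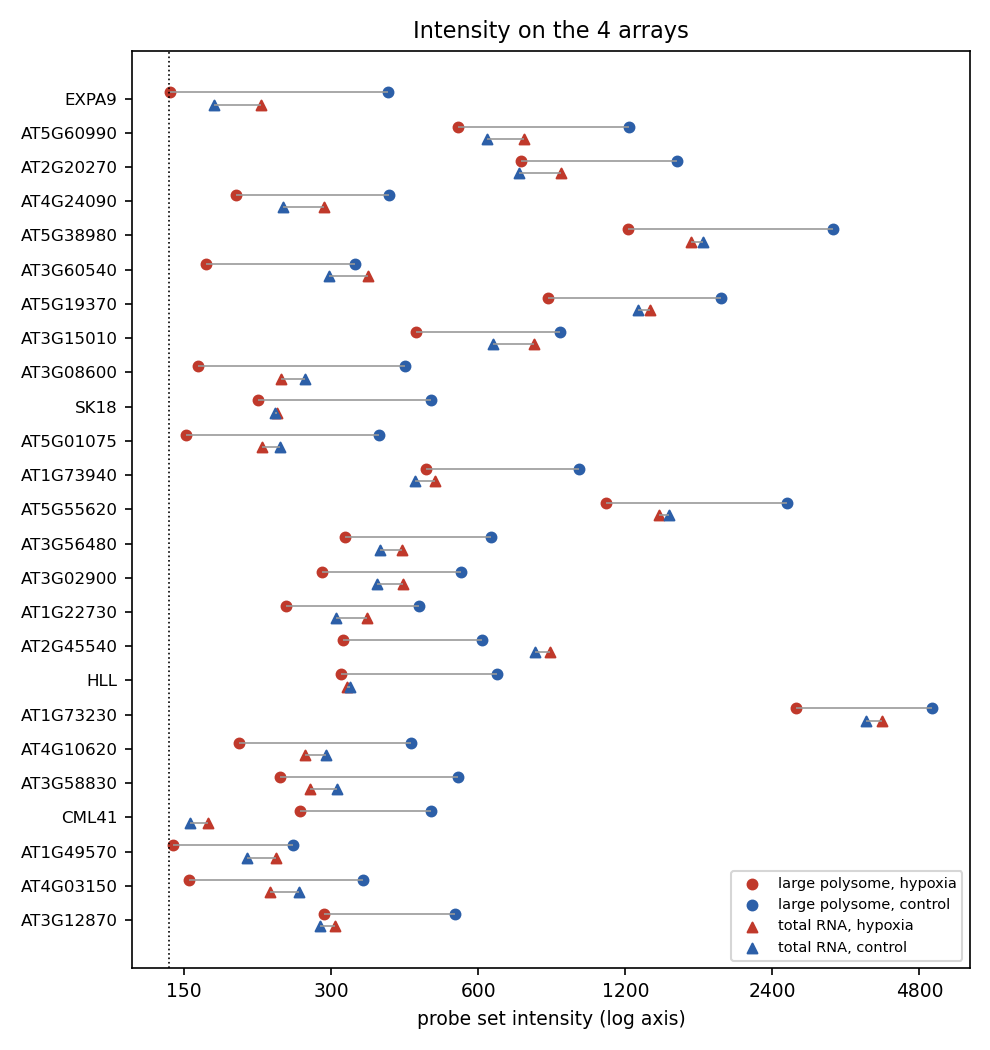
Probe set intensity (log axis) on each of the 4 arrays for the 25 named members with the lowest change of association, lowest at the top, with circles for large-polysome RNA, triangles for total RNA, red for hypoxia and blue for control. In every row the red circle lies left of the blue circle while the triangles lie close together, as the rule requires of every member. The dotted line marks the limit of 140, which EXPA9 and AT1G49570 barely pass.

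Among the 25 named members with the lowest change of association, several had no role that could be stated. AT5G38980 was one of the brightest of these, with 1217 in hypoxia and 3189 in control in large-polysome RNA, and 1637 and 1730 in total RNA. AT5G55620 had 1096 in hypoxia and 2568 in control in large-polysome RNA, and 1404 and 1478 in total RNA. Both were bright and clear of the limit, with polysomal ratios of 0.382 and 0.427 and total RNA ratios of 0.946 and 0.950. AT1G73940 had 468.2 in hypoxia and 966.4 in control in large-polysome RNA, and 490.6 and 445.1 in total RNA. AT4G24090 and AT3G08600 had changes of association of -1.32 and -1.24, with hypoxic large-polysome intensities of 192.0 and 160.2, nearer the limit. The others of the 25 without a stated role were AT5G01075, AT3G56480, AT3G02900, AT4G10620, AT4G03150 and AT3G12870, with changes of association from -1.19 to -0.99.

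Words in the gene symbols and synonyms were also searched for 22 functional classes. Only 4 classes held a member, and transcription factors, with 2 of 15 measured genes, was the only one with more than 1, where 1.51% of all measured probe sets were members. Most genes carry only a locus identifier in these annotations, so the search says little about function. The 82 named members lay on all 5 chromosomes, with 21, 10, 21, 10 and 20 on chromosomes 1 to 5, against 1502, 822, 1144, 825 and 1367 measured named probe sets. No 2 of them were immediate neighbours among protein-coding genes of the RefSeq annotation of assembly TAIR10.1.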

How the data were processed

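The authors deposited 1 linear intensity for each probe set and array; the software that summarised the probes is not given in the sources used here. The mean between the 2nd and 98th percentile was 499 to 500 on each array, which is the only trace of scaling that was checked. The arrays were of 1 chip lot, per the file headers, and the array of total RNA in hypoxia was scanned 2 times and the others once.

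The rule was applied to the deposited intensities as they stand, with no background correction. Cytosolic ribosomal protein genes were recognised from a list of 238 loci written from general knowledge after values had been seen, and organelle genes by their RefSeq chromosome. Symbols came from the platform annotation, updated to RefSeq (TAIR10.1) through the Entrez identifier. Of 22746 probe sets, 13513 had 1 gene, 503 several and 8730 none. Ratios were taken on the log2 scale of the deposited intensities.

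The members and lists were chosen with earlier results of these data known. The named genes were to be the 25 named members with the lowest change of association, members of a class with 2 or more members, and those next to the limit; other members described for their role were chosen after their values were seen. No protein, promoter or motif sequence was used here, so planned sequence features were not computed. The rule was tested on simulated data. Alternatives were 3 other scalings, 3 intensity limits, 1 lower polysomal limit and 1 narrower window. Python 3.11.15, pandas 2.3.3 and numpy 2.4.6 were used.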

Additional observations from a re-analysis of the deposited data

Results flagged for a closer look

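In 38 members hypoxia over control was above 1 in total RNA and below 1 in large-polysome RNA, as in 11.2% of measured probe sets. The number depends on the scaling, and was 73 after quantile normalization, 124 with equal medians and 145 with spiked controls. The difference was not tested, and the polysomal direction was set by the choice of members.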

How the results depend on the processing

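The number of members was 165 and depended on the settings. It was 159 after quantile normalization, 167 with equal medians, 128 with the limit at 200, 240 with the limit at 70 and 159 without probe sets matching several transcripts, but 1045 when arrays were scaled on 9 spiked bacterial control probe sets, 57 with the limit at 500, 72 with a polysomal ratio at or below 0.5, and 70 with a total RNA window from 0.9 to its reciprocal. A like count hides a change in membership: of the 165 members, 97 met the rule after quantile normalization, 56 with equal medians and 135 with the spiked controls. With members kept, the median log2 ratio in total RNA was -0.14 and turned to 0.14 with the spiked controls and 0.11 with equal medians. These scalings shifted the median of all measured probe sets by 0.29 and 0.25. The median change of association of -0.88 became -1.49 with the spiked controls, which shifted all probe sets by -0.61, and the median large-polysome over total ratio in control of 0.61 became 1.32 against a shift of 0.71. Scaling on spiked controls or equal medians adds the same negative number to every change of association, so the members' values stayed below 0 there by construction, which says nothing of their stability. No paired analysis was possible because each group has 1 array. The number of arrays and probe error limit the precision.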
